A study of Homo sapiens with 14 samples.

Results

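The genes of the ERBB, MET and FGF receptor tyrosine kinases were followed in CWR22RV1 cells treated with inhibitors of glycosylation. The group was set by gene family and not by a measured value, although earlier results of these data were known. It comprised 9 genes (EGFR, ERBB2, ERBB3, ERBB4, MET, FGFR1, FGFR2, FGFR3 and FGFR4) of the 27819 genes present in all 4 deposited tables. CWR22RV1 is a human prostate cancer cell line that was established from a xenograft. RNA-seq libraries came from cells kept for 72 h with the vehicle DMSO (3 libraries), with P-SiaFNEtoc at 2 μM (3), SGN-2FF at 100 μM (3), Fucotrim I at 30 μM (3) and Fucotrim II at 60 μM (2). Fucotrim I, Fucotrim II and SGN-2FF inhibit the addition of fucose to glycans, and P-SiaFNEtoc inhibits sialyltransferases, the enzymes that add sialic acid. The paper reports that both Fucotrims can inhibit fucosylation in CWR22RV1 cells. With Fucotrim I, however, the drop in fucose lectin binding in this line was too small to set its inhibitory concentration. It also cites earlier work in which the Fucotrims lowered GDP-mannose, and reports that both induce apoptosis in this line. Whether the changes below come from loss of fucose was not tested. All groups share a single untransfected cell line grown in culture, and no genotype differs between them. The question addressed for each inhibitor was which receptor genes changed against DMSO. Because the doses differ, the inhibitors were not tested against each other, and because all 4 comparisons use the same 3 DMSO libraries, they are not independent.

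Receptor tyrosine kinases span the cell membrane and are activated when a ligand brings 2 receptor molecules together. Adaptor proteins then link the phosphorylated receptor to the RAS, RAF, MEK and ERK cascade and to PI3K and AKT, and both routes promote growth and survival of epithelial cells. ERBB2 has no known ligand of its own and ERBB3 has little kinase activity, so these receptors signal mainly as partners of other ERBB proteins. The extracellular parts of these receptors carry N-glycans, which can hold both fucose and sialic acid. The values below are mRNA levels, and receptor protein, its glycans and its phosphorylation were not measured here.

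The libraries held 12553094 to 19981453 counts on genes. All 10 markers listed for luminal prostate epithelium were detected in every library, with FOXA1, a transcription factor of that epithelium, at 389 to 479 CPM, the read count normalised to library size with TMM scaling over the 14 libraries. Markers of basal epithelium summed to at most 0.455 CPM, PTPRC, a leukocyte gene, reached at most 0.189 CPM, and PECAM1 and CDH5, endothelial genes, each reached at most 0.0837 CPM. Of the fibroblast and smooth muscle markers, COL1A1 stood at 15.9 to 29.2 CPM, but COL1A2 was at most 0.165, DCN at most 0.932 and ACTA2 at most 4.69 CPM. Of the neuroendocrine markers, SYP stood at 94.6 to 156 CPM and CHGA at most at 0.0962 CPM. The summed level of the luminal markers was 2595 to 2693 CPM with DMSO, 2990 to 3059 with P-SiaFNEtoc, 3189 to 3317 with SGN-2FF, 3292 to 3564 with Fucotrim II and 3505 to 3581 with Fucotrim I, so it moved with treatment, and its part in the receptor results was not tested. In such bulk samples, fewer cells of a type and less RNA per cell cannot be told apart.

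The stretches of DNA just upstream of the start are shown for 4 receptor genes, namely MET, EGFR and ERBB4, which fell with both Fucotrims, and FGFR4, which rose with P-SiaFNEtoc. They were taken from RefSeq on GRCh38.p14, end at or just before the first annotated exon, and are written 5′ to 3′ on the strand of the gene. Capitals mark GC boxes (GGGCGG, or CCGCCC on the other strand), the sequence bound by SP1-type factors. The MET sequence is chr7:116671946-116672195 on the plus strand (250 bases, 2 GC boxes) and the EGFR sequence is chr7:55018767-55019016 on the plus strand (250 bases, 2 GC boxes). That of ERBB4 is chr2:212538842-212539052 on the minus strand (211 bases, 1 GC box), and that of FGFR4 is chr5:177086665-177086904 on the plus strand (240 bases, 7 GC boxes).
MET: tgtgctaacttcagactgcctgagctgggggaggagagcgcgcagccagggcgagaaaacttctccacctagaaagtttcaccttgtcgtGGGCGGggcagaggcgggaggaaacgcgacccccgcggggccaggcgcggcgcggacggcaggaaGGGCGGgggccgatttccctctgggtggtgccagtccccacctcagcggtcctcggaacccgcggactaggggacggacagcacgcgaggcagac
EGFR: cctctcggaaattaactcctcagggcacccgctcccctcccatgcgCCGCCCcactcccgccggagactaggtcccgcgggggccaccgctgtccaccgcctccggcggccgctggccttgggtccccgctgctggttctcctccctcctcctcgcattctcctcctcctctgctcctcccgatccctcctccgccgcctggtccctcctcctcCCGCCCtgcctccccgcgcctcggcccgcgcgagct
ERBB4: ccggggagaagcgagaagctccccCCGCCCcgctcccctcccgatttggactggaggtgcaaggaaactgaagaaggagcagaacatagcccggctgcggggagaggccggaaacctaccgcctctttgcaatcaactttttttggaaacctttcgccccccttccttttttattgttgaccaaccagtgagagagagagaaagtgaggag
FGFR4: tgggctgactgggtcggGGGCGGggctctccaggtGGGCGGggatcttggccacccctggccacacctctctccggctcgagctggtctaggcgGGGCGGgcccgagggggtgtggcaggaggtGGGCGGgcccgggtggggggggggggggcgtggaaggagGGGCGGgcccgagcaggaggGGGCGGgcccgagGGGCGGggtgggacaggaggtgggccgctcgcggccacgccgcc
The GC box was present in 42.6% of the 35116 promoters of that table, searched over 250 bases before the start on both strands. Over the same window, the G and C content was 68.4% for MET, 73.6% for EGFR, 57.2% for ERBB4 and 79.6% for FGFR4. None of these 4 windows held the letters TATAAA (found in 10.7% of all promoters), TGANTCA (6.57%), CCAAT (32%) or CACGTG (6.34%). FGFR3 had 8 GC boxes, FGFR2 had 3, and ERBB2 had none but held 1 CCAAT and 1 TGANTCA. ERBB3 and FGFR1 had no promoter in that set and were not searched. A match of letters is a description of the window only.

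The receptor genes differed widely in their level with DMSO alone. Per kb of the canonical transcript, ERBB3 stood at 42.5 ± 0.709 CPM per kb (SD, n = 3), ERBB2 at 31.9 ± 2.09 and FGFR3, a receptor for fibroblast growth factors, at 30.6 ± 1.93. The other detected receptors lay far below these. MET, the receptor for hepatocyte growth factor, was at 4.71 ± 0.155 CPM per kb and FGFR1 at 3.77 ± 0.241. EGFR, the receptor for epidermal growth factor, was at 2.58 ± 0.107, FGFR4 at 2.38 ± 0.121 and ERBB4 at 0.809 ± 0.0958. ERBB2 and FGFR3 did not differ beyond their spread. The choice of length changes the order, since per kb of all annotated exons FGFR3 led with 27.1 CPM per kb, followed by ERBB3 with 20.4 and ERBB2 with 14.1, and FGFR1 fell to 1.25, below EGFR with 1.60 and FGFR4 with 1.53.

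**Figure D1:**
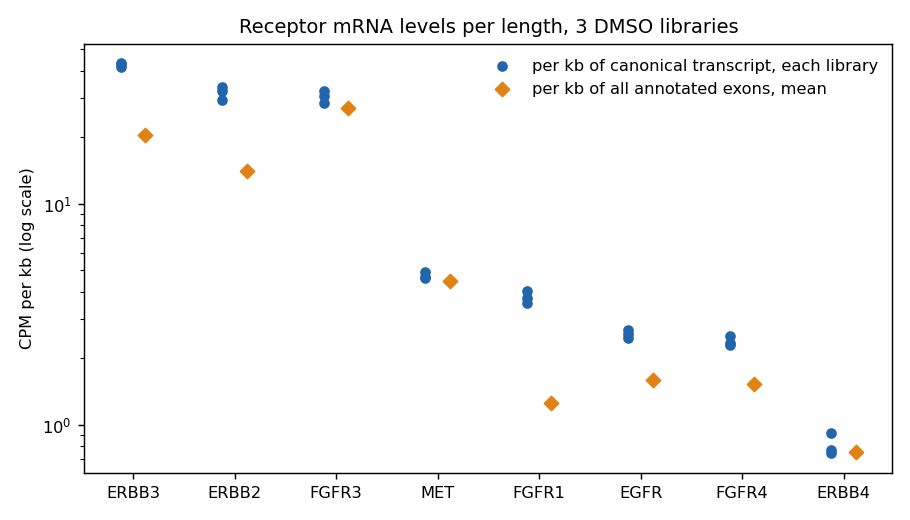
Level of each detected receptor gene in the 3 DMSO libraries, in CPM per kb on a log axis; circles are libraries per kb of the canonical transcript and diamonds are means per kb of all annotated exons. ERBB3, ERBB2 and FGFR3 stand above 10 CPM per kb on either length, and ERBB4 is lowest on both.

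FGFR2 had 0 counts in 13 of the 14 libraries and 1 count in the remaining one, a P-SiaFNEtoc library. A count of 0 allows up to 3 counts, which is 0.150 to 0.239 CPM at these depths, counting error only. FGFR2 therefore entered no test, and 8 of the 9 receptor genes were tested in every comparison. ERBB2, ERBB3 and FGFR3 together made up 88.0% of the summed level per kb of the 9 genes with DMSO, 88.0% with SGN-2FF, 87.0% with P-SiaFNEtoc, and 89.6% and 90.6% with Fucotrim I and Fucotrim II. The sum itself was 119 ± 4.33 CPM per kb with DMSO (SD, n = 3) and 135 ± 2.56 with Fucotrim II (n = 2), and the latter libraries lay at 133 and 137, above the DMSO range of 114 to 122.

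With Fucotrim I, 5 of the 8 tested receptor genes were called, meaning an adjusted p under 0.05 in the edgeR quasi-likelihood test, adjusted by the Benjamini-Hochberg method over all genes. The inhibitor changed much of the transcriptome, and 43.8% of all genes tested were called. MET, ERBB4, EGFR and ERBB3 fell and FGFR1 rose, against 22.1% of all genes called lower and 21.6% called higher. Fucotrim II also gave 5 called receptor genes, with 51.4% of all genes called. MET, ERBB4 and EGFR fell and ERBB2 and FGFR1 rose (25.7% of all genes were lower and 25.6% higher). SGN-2FF gave 1 called receptor gene, ERBB4, which was lower (9.08% of all genes were called lower, 11.5% higher and 20.6% in either direction). P-SiaFNEtoc gave 2, MET and FGFR4, and both were higher (9.02% of all genes were called higher, 7.33% lower and 16.3% in either direction). The median log2 fold change of the 8 receptors was -0.18, -0.08, -0.04 and 0.04 in these comparisons, beside 0.00, 0.01, 0.00 and 0.00 over all genes tested.

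**Figure D2:**
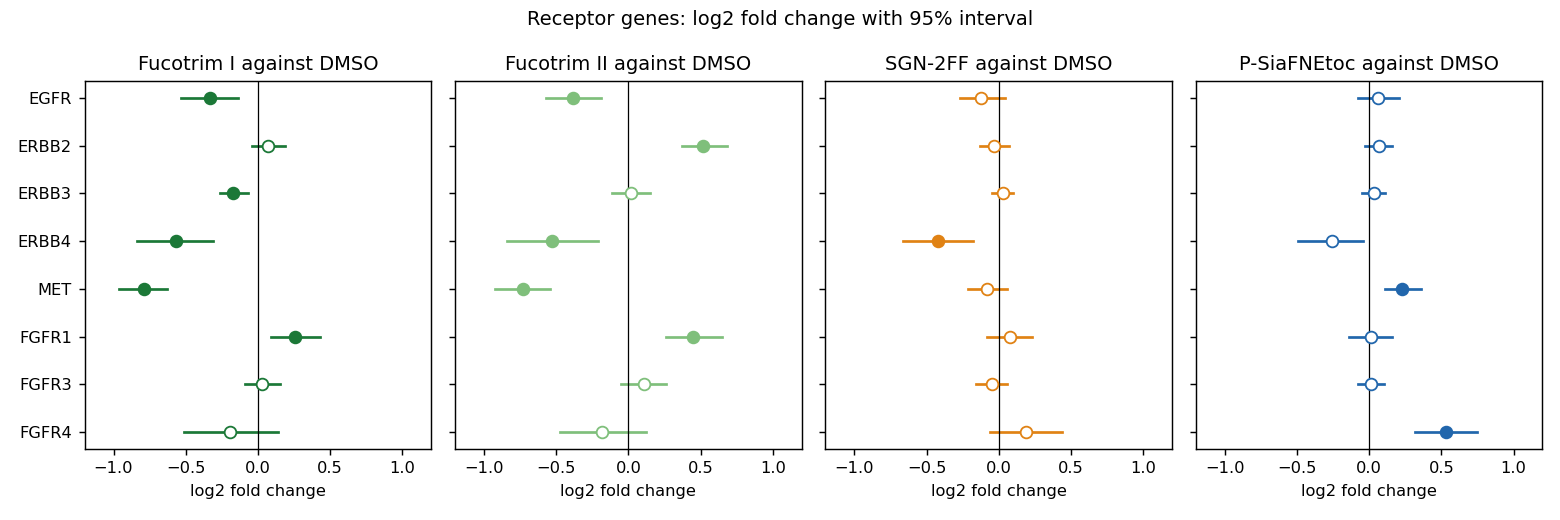
Log2 fold change of each receptor gene against DMSO with its 95% interval, one panel per inhibitor; filled circles passed the threshold of an adjusted p under 0.05 and open circles did not. MET lies left of 0 with both Fucotrims and right of 0 with P-SiaFNEtoc, and ERBB4 lies left of 0 in all 4 panels but is open with P-SiaFNEtoc.

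MET (chr7:116672196-116798377, plus strand, hg38, 21 exons) gave the largest change among the receptors, and its direction differed between the inhibitors. It was measured at 33.3, 31.3 and 31.7 CPM in the DMSO libraries. With Fucotrim I it was at 20.1, 17.6 and 17.8 CPM, and with Fucotrim II at 18.7 and 20.2 CPM. All Fucotrim libraries thus lay far below the DMSO range. The log2 fold change was -0.79 ± 0.08 (SE) with Fucotrim I (0.58 of the DMSO level, edgeR quasi-likelihood test, Benjamini-Hochberg adjusted p = 1.60e-07). With Fucotrim II it was -0.73 ± 0.08 (0.60 of the DMSO level, same test, adjusted p = 1.32e-04). The SGN-2FF libraries, at 32.3, 28.4 and 30.3 CPM, overlapped DMSO, and the log2 fold change of -0.08 (95% interval -0.21 to 0.06) did not pass. In the P-SiaFNEtoc libraries MET was at 39.4, 37.6 and 35.7 CPM, all above DMSO. Its log2 fold change there was 0.23 ± 0.06 (1.18-fold, edgeR quasi-likelihood test, Benjamini-Hochberg adjusted p = 0.00856). That call was lost in 1 of 13 alternatives, over which the value ranged from 0.19 to 0.27. Without P-SiaFNEtoc replicate 1, the highest library, it was 0.19 with an adjusted p of 0.0638 in the same edgeR test.

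ERBB4 (chr2:211375717-212538841, minus strand, 28 exons), which binds neuregulins, was the receptor with the lowest level per length among those tested and was lower than DMSO in every treated library. It stood at 11.1, 9.28 and 8.96 CPM with DMSO. The Fucotrim I libraries were at 6.45, 6.96 and 6.28 CPM and the Fucotrim II libraries at 7.16 and 6.50 CPM. SGN-2FF gave 7.58, 6.77 and 7.52 CPM and P-SiaFNEtoc gave 8.32, 8.01 and 8.07 CPM. These libraries hold 75 to 202 counts of ERBB4, so its error is wider than that of MET. The log2 fold change was -0.57 ± 0.13 with Fucotrim I (edgeR quasi-likelihood test, Benjamini-Hochberg adjusted p = 0.00108), -0.53 ± 0.14 with Fucotrim II (0.0116) and -0.42 ± 0.12 with SGN-2FF (0.0109). With P-SiaFNEtoc it was -0.26 ± 0.11 and did not pass (same test, adjusted p = 0.0966). DMSO replicate 1, the highest library, bore on these calls. Without it the log2 fold change was -0.43 with Fucotrim II (edgeR adjusted p = 0.0514) and -0.32 with SGN-2FF (0.0854), and without SGN-2FF replicate 2 the latter was -0.37 (0.0852), so that no receptor gene was then called with SGN-2FF.

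**Figure D3:**
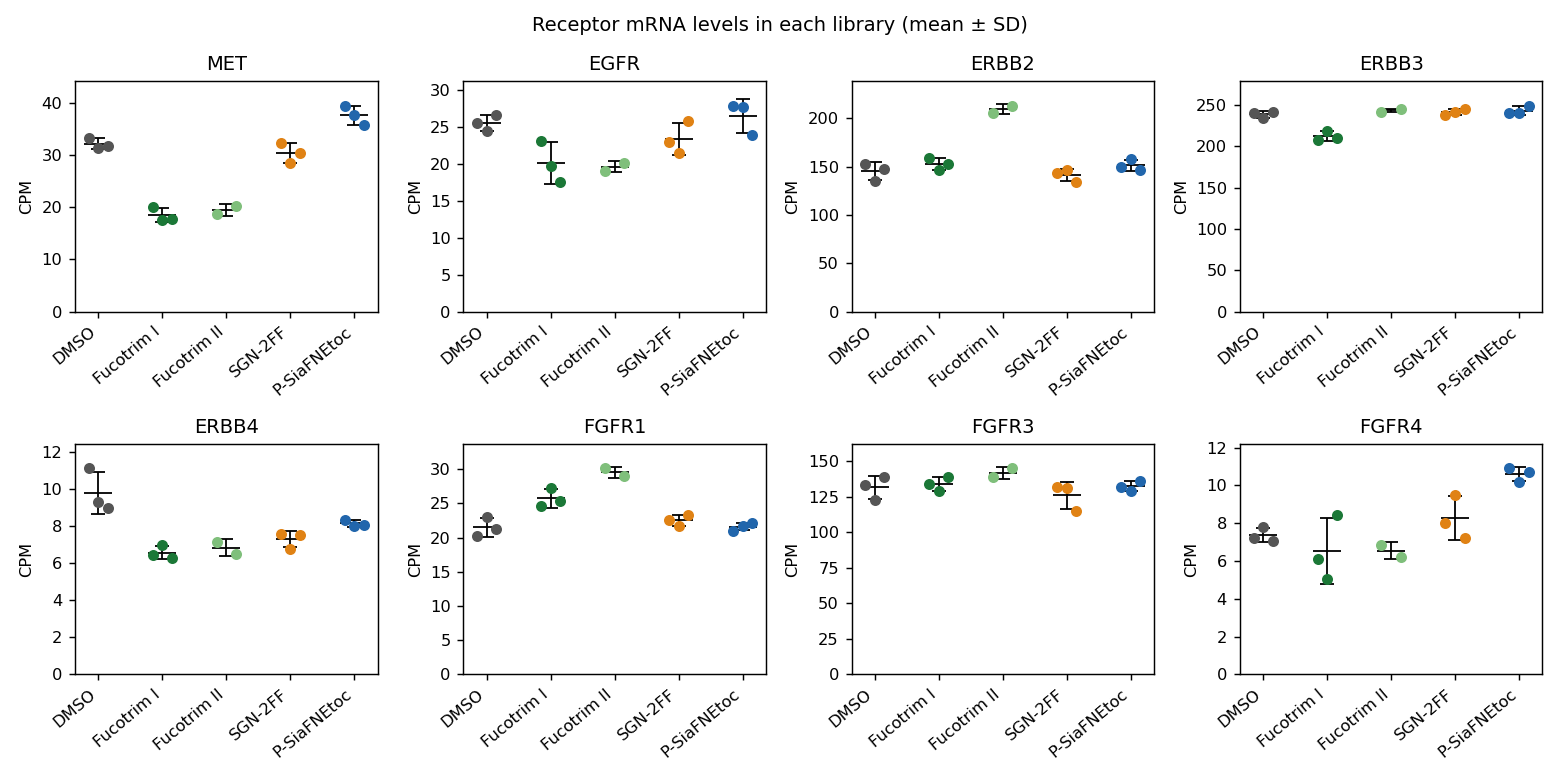
CPM of the 8 detected receptor genes in each of the 14 libraries by group, on axes that start at 0; points are libraries and bars are the mean ± SD (FGFR2, with at most 1 count, is not drawn). The Fucotrim libraries of MET sit between 17.6 and 20.2 CPM, below the DMSO libraries at 31.3 to 33.3, while FGFR3 overlaps DMSO in every group.

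EGFR (chr7:55019017-55211628, plus strand, 28 exons) fell with both Fucotrims and passed with neither of the other inhibitors. It was at 25.5, 24.5 and 26.6 CPM with DMSO, at 23.1, 19.8 and 17.5 with Fucotrim I and at 19.1 and 20.2 with Fucotrim II. All 5 Fucotrim libraries lay below the DMSO libraries. The log2 fold change was -0.33 ± 0.09 with Fucotrim I (edgeR quasi-likelihood test, Benjamini-Hochberg adjusted p = 0.00564) and -0.38 ± 0.09 with Fucotrim II (0.00508). Without Fucotrim I replicate 3, the lowest library, the former was -0.25 and did not pass (same test, adjusted p = 0.0515). The SGN-2FF libraries at 21.5 to 25.8 CPM and the P-SiaFNEtoc libraries at 23.9 to 27.9 CPM overlapped DMSO. The 95% intervals of the log2 fold change were -0.27 to 0.04 and -0.08 to 0.21, and neither passed.

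ERBB2 (chr17:39687914-39730426, plus strand, 27 exons) rose with Fucotrim II. It was at 153, 135 and 148 CPM with DMSO and at 206 and 213 CPM with Fucotrim II, well apart from every other library. The log2 fold change was 0.52 ± 0.07 (1.44-fold, edgeR quasi-likelihood test, Benjamini-Hochberg adjusted p = 2.75e-04). The other treated libraries lay at 134 to 159 CPM and overlapped DMSO, with 95% intervals of -0.04 to 0.19 for Fucotrim I, -0.13 to 0.07 for SGN-2FF and -0.03 to 0.16 for P-SiaFNEtoc. Of the exon bases of ERBB2, 6.93% are also exons of MIEN1 or PGAP3 on the opposite strand, and reads in those bases cannot be told apart if the counting did not use strand, which the sources used here do not state. ERBB3 (chr12:56076799-56103505, plus strand, 28 exons) was at 240, 234 and 242 CPM with DMSO and at 208, 219 and 210 CPM with Fucotrim I. The groups did not overlap, and the drop was small, with a log2 fold change of -0.17 ± 0.05 (same edgeR test, adjusted p = 0.00764). In the other 3 treatments ERBB3 was at 238 to 249 CPM, with values of 0.02, 0.03 and 0.03 for Fucotrim II, SGN-2FF and P-SiaFNEtoc, and none passed.

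Among the FGF receptors, FGFR1 rose with the Fucotrims and FGFR4 with P-SiaFNEtoc. FGFR1 (chr8:38400215-38468834, minus strand, 18 exons) was at 20.2, 23.0 and 21.2 CPM with DMSO, at 24.6, 27.3 and 25.3 with Fucotrim I and at 30.1 and 29.0 with Fucotrim II. Neither Fucotrim group overlapped DMSO. The log2 fold change was 0.26 ± 0.08 with Fucotrim I (edgeR quasi-likelihood test, Benjamini-Hochberg adjusted p = 0.0125) and 0.45 ± 0.09 with Fucotrim II (0.00209). For Fucotrim I the value was 0.22 without DMSO replicate 1 (edgeR adjusted p = 0.0757) and 0.22 without Fucotrim I replicate 2 (0.0520). With SGN-2FF and P-SiaFNEtoc FGFR1 was at 21.0 to 23.3 CPM, and the intervals of -0.08 to 0.23 and -0.14 to 0.16 span 0. LETM2 and 1 further annotated gene overlap 3.05% of its exon bases on the opposite strand.

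FGFR4 (chr5:177086905-177098144, plus strand, 18 exons) was at 7.20, 7.78 and 7.08 CPM with DMSO and at 10.9, 10.2 and 10.7 CPM with P-SiaFNEtoc, clear of every other library. The log2 fold change of 0.53 ± 0.11 (1.44-fold) passed the edgeR quasi-likelihood test with a Benjamini-Hochberg adjusted p of 6.79e-04. The highest adjusted p over the 13 alternatives to that fit was 0.0196, in the edgeR fit of all 14 libraries together. With Fucotrim I it was at 6.10, 5.07 and 8.46 CPM, a spread wider than any other receptor showed relative to its level, and the log2 fold change of -0.19 had an interval of -0.51 to 0.14. The Fucotrim II libraries, at 6.86 and 6.22 CPM, were below DMSO without passing (-0.18, interval -0.47 to 0.12), and SGN-2FF gave 0.19 (interval -0.06 to 0.44). FGFR3 (chr4:1793293-1808872, plus strand, 18 exons) overlapped DMSO in all 4 treatments, at 123 to 139 CPM with DMSO and 115 to 145 CPM in the treated libraries. Its log2 fold changes were 0.03, 0.11, -0.05 and 0.01 for Fucotrim I, Fucotrim II, SGN-2FF and P-SiaFNEtoc, and the interval widest from 0 reached 0.26.

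Across the groups, MET was ordered P-SiaFNEtoc, DMSO, SGN-2FF, Fucotrim II and Fucotrim I from high to low, where only the steps from P-SiaFNEtoc to DMSO and from SGN-2FF to Fucotrim II lacked overlap of libraries. ERBB4 was ordered DMSO, P-SiaFNEtoc, SGN-2FF, Fucotrim II and Fucotrim I, and the libraries of the last 3 groups overlapped from one to the next. With Fucotrim I, 4 receptor genes had all treated libraries below DMSO and 1 had them above (27.0% and 25.6% of all genes, 52.6% in either direction). With Fucotrim II, 4 lay below and 2 above (34.2% and 33.5% of all genes, 67.7% together). SGN-2FF put 1 receptor below (17.4% of all genes, against 18.6% above and 36.0% together), and P-SiaFNEtoc put 1 below and 2 above (16.4% and 17.3%, 33.7% together). Of 11686 genes tested in all 4 comparisons with a mean of at least 50 counts per library, the pair closest to MET in their 4 log2 fold changes were PAPSS2, which makes the donor of sulfate groups (root mean square difference 0.0558), and OVOL1, a transcription factor (0.0746). PAPSS2 had -0.74, -0.81, -0.10 and 0.28 for Fucotrim I, Fucotrim II, SGN-2FF and P-SiaFNEtoc. The closest to ERBB4 were KPNA5, a nuclear import receptor (0.0292), and APBB2, an adaptor of the amyloid precursor protein (0.0548). These differences are of the size of the receptors' own SE or smaller (0.06 to 0.08 for MET and 0.11 to 0.14 for ERBB4). Which genes come closest is therefore not settled.

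Genes of the receptor pathways are given by list, and the counts are to be read against the 43.8%, 51.4%, 20.6% and 16.3% of all genes called with Fucotrim I, Fucotrim II, SGN-2FF and P-SiaFNEtoc. HGF, the ligand of MET, was expressed at 104 to 113 CPM in the DMSO libraries. It fell to 67.2 to 81.5 CPM with Fucotrim I and to 58.2 to 73.4 CPM with Fucotrim II, and rose to 131 to 148 CPM with SGN-2FF and 142 to 151 CPM with P-SiaFNEtoc. No treated library overlapped DMSO. The log2 fold changes were -0.50 ± 0.07 and -0.72 ± 0.10 with Fucotrim I and II and 0.40 ± 0.05 and 0.44 ± 0.04 with SGN-2FF and P-SiaFNEtoc, and each passed under all 13 alternatives. HGF and MET thus both fell with the Fucotrims and both rose with P-SiaFNEtoc, while with SGN-2FF HGF rose and MET did not pass. HPN, hepsin, a membrane protease that cleaves HGF into its active form, rose in all 4 comparisons, from 16.1 ± 1.11 CPM with DMSO to 27.6 ± 2.92 with Fucotrim I (SD, n = 3), 41.0 ± 1.10 with Fucotrim II (n = 2), 20.8 ± 1.02 with SGN-2FF and 19.8 ± 0.854 with P-SiaFNEtoc (n = 3). SPINT2, an inhibitor of such proteases, rose in all 4 too, by 0.13, 0.47, 0.16 and 0.21 in log2. The rise of 0.13 with Fucotrim I passed in 7 of 13 alternatives and was lost without any 1 of the 3 DMSO libraries or Fucotrim I replicate 1 or 3. Of the 6 genes tested from this list of 7, 2 rose and 1 fell with Fucotrim I, 3 rose and 1 fell with Fucotrim II, and 3 rose with either of the other inhibitors.

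**Figure D4:**
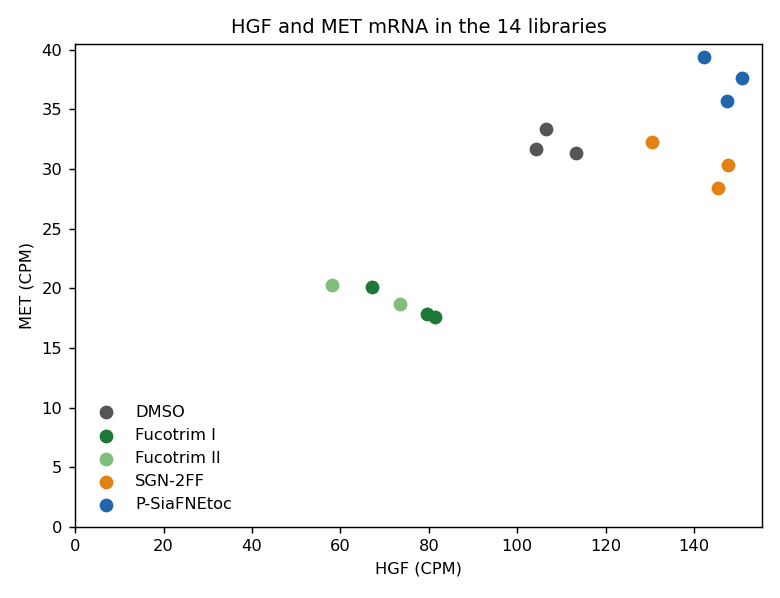
HGF (horizontal) and MET (vertical) in CPM in each of the 14 libraries, colored by group, with both axes starting at 0. The 5 Fucotrim libraries sit lowest on both axes, with HGF at 58.2 to 81.5 CPM, and the SGN-2FF libraries lie right of DMSO at a similar height.

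Of 11 ERBB ligand genes, 7 were tested. With Fucotrim I, 1 rose and 2 fell, with Fucotrim II 2 fell, with SGN-2FF 1 fell and with P-SiaFNEtoc 1 rose, so in each comparison more of the 7 missed the threshold than passed it. These 3, 2, 1 and 1 calls stand beside 43.8%, 51.4%, 20.6% and 16.3% of all genes. The medians were -0.47, -0.73, -0.12 and 0.04. With both Fucotrims the median is the value of NRG3, at 1.42 CPM with DMSO, which passed with neither. AREG, amphiregulin, a ligand of EGFR, was at 7.97 to 8.56 CPM with DMSO, 4.10 to 4.73 with Fucotrim I and 4.45 to 4.69 with Fucotrim II. Its log2 fold changes of -0.93 ± 0.13 and -0.87 ± 0.13 passed under all 13 alternatives. With P-SiaFNEtoc AREG was at 10.1 to 11.1 CPM and its change of 0.33 passed in 7 of 13, being lost without DMSO replicate 1 or 3 or P-SiaFNEtoc replicate 1 or 2. BTC, betacellulin, fell by 0.50 in log2 with Fucotrim I, a call lost without any 1 of the DMSO libraries or Fucotrim I replicate 2 or 3, and by 0.99 with Fucotrim II, where all 13 alternatives kept it. NRG4, a ligand of ERBB4, rose by 0.80 with Fucotrim I, and EGF fell by 1.29 with SGN-2FF. Both calls were lost without DMSO replicate 1 or 3, and also without Fucotrim I replicate 3 for NRG4 and SGN-2FF replicate 1 for EGF.

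Of 25 genes of the FGF family, its coreceptors and related proteins, 7 or 8 were tested in each comparison. Most of the family was too low to test. FGF17 rose with both Fucotrims, from 4.01 to 5.50 CPM in the DMSO libraries to 8.10 to 10.5 with Fucotrim I and 15.2 to 18.2 with Fucotrim II, with log2 fold changes of 0.89 ± 0.15 and 1.76 ± 0.15 that passed in all 13 alternatives. It was the only gene of this list to do so in any comparison. FGFRL1, a receptor-like protein without a kinase domain, rose with Fucotrim I (0.16) and fell with SGN-2FF (-0.16), FGF22 rose with Fucotrim II (0.71) and FGF13 rose with P-SiaFNEtoc (0.34). The FGF13 call was lost without DMSO replicate 3. The other 3 calls were lost without any 1 of the DMSO libraries, and also without Fucotrim I replicate 1 or 3 (FGFRL1), SGN-2FF replicate 2 or 3 (FGFRL1) or either Fucotrim II library (FGF22). Of the 4 genes for the release of membrane-bound ligands, 2 rose and 2 fell with Fucotrim I, 1 rose and 2 fell with Fucotrim II, and 1 rose with SGN-2FF and with P-SiaFNEtoc. RHBDF1, an inactive rhomboid that helps ADAM17 to mature, rose in all 4 comparisons, by 0.60, 0.70, 0.33 and 0.23. ADAM10 and ADAM17, which cut ligands from the membrane, had -0.24 and -0.25 with Fucotrim I and -0.23 and -0.27 with Fucotrim II and passed in both, ADAM17 with Fucotrim I not without DMSO replicate 2 or Fucotrim I replicate 1 or 3. With Fucotrim II both were lost without DMSO replicate 2 or 3 or Fucotrim II replicate 2, and ADAM10 also without DMSO replicate 1.

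All 14 genes of adaptors, docking proteins and related signalling proteins were tested, and not all of them link receptors to RAS. Of these, 3 rose and 9 fell with Fucotrim I and 2 rose and 6 fell with Fucotrim II. With SGN-2FF 1 rose and 4 fell, and with P-SiaFNEtoc 2 rose and 3 fell. Of all genes, 22.1%, 25.7%, 9.08% and 7.33% were called lower. The medians were -0.29, -0.20, -0.05 and -0.00. FRS2, the docking protein of FGF receptors, had -0.32, -0.52, -0.19 and -0.19, SOS1, an exchange factor that activates RAS, had -0.35, -0.36, -0.23 and -0.17, and CRKL had -0.34, -0.62, -0.06 and -0.13. With the Fucotrims these 3 genes passed under all 13 alternatives, but CRKL did not pass with SGN-2FF, and other values with SGN-2FF and P-SiaFNEtoc were less firm. FRS2 was lost in 7 of 13 alternatives with SGN-2FF and in 6 of 13 with P-SiaFNEtoc, and without DMSO replicate 2 it had -0.10 in both. It was also lost without DMSO replicate 3 or SGN-2FF replicate 1 or 2 in the former and P-SiaFNEtoc replicate 2 or 3 in the latter. With P-SiaFNEtoc, SOS1 was lost without DMSO replicate 2 or 3 or P-SiaFNEtoc replicate 2 or 3, and CRKL without DMSO replicate 2 or 3 or P-SiaFNEtoc replicate 1 or 2. Both were also lost with DESeq2 and in the joint fit of all libraries, and SOS1 with limma-voom too. GRB7, an adaptor of ERBB2, went the other way and rose in all 4, from 30.7 ± 0.498 CPM with DMSO to 37.2 ± 2.12, 53.6 ± 3.11, 38.0 ± 0.729 and 38.0 ± 0.564, and passed under every alternative tried. GAB2, a docking protein, fell with the Fucotrims (-0.52 and -0.61) and rose with P-SiaFNEtoc (0.31, lost without DMSO replicate 1 or P-SiaFNEtoc replicate 2). The number of adaptors called with SGN-2FF fell from 5 to between 2 and 3 without DMSO replicate 3 or SGN-2FF replicate 1 or 2, and with P-SiaFNEtoc from 5 to between 1 and 3 without DMSO replicate 2 or 3 or P-SiaFNEtoc replicate 2 or 3.

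In the RAS, RAF, MEK and ERK list, 9 of 10 genes were tested. With Fucotrim I 1 rose and 4 fell, with Fucotrim II 2 rose and 5 fell, with SGN-2FF 3 fell and with P-SiaFNEtoc 1 rose. NRAS, a RAS GTPase, fell with all 3 fucosylation inhibitors (-0.37, -0.58 and -0.25) and passed under every alternative there. MAPK3, which encodes ERK1, rose with Fucotrim II (0.34) and P-SiaFNEtoc (0.24). In the PI3K and AKT list, 9 of 11 were tested, and 3 rose and 2 fell with Fucotrim I, 1 rose and 6 fell with Fucotrim II, 2 rose and 2 fell with SGN-2FF and 1 rose with P-SiaFNEtoc. PIK3CB, a catalytic subunit of PI3K, fell with all 3 fucosylation inhibitors (-0.31, -0.43 and -0.15), and the last was lost in 8 of 13 alternatives, among them the omission of any DMSO library. Without DMSO replicate 1 no gene of the PI3K and AKT list was called with SGN-2FF or P-SiaFNEtoc, and none was called with P-SiaFNEtoc without P-SiaFNEtoc replicate 2 either. Without DMSO replicate 3 the list gave 4 calls with Fucotrim II in place of 7 and 1 with SGN-2FF in place of 4, and without SGN-2FF replicate 1 it also gave 1.

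Genes that end or dampen receptor signalling moved in both directions. Of 11 negative regulators, 1 rose and 6 fell with Fucotrim I, 1 rose and 4 fell with Fucotrim II, 1 rose and 2 fell with SGN-2FF and 2 rose and 1 fell with P-SiaFNEtoc. CBLC, a ubiquitin ligase of the CBL family that marks receptors for degradation, rose in all 4 comparisons, from 9.02 to 9.90 CPM in the DMSO libraries to 13.2 to 20.1 CPM in the treated ones, with 0.79, 0.99, 0.58 and 0.56 in log2. CBL itself fell with Fucotrim I (-0.38) and Fucotrim II (-0.67), and NEDD4, another ubiquitin ligase, fell with all 3 fucosylation inhibitors (-0.55, -0.82 and -0.34). ERRFI1, an inhibitor of EGFR, was at 45.3 to 47.4 CPM with DMSO, fell to 33.9 to 36.7 with Fucotrim II (-0.40) and rose to 61.0 to 63.5 with P-SiaFNEtoc (0.43). With Fucotrim I its fall of 0.25 was lost without Fucotrim I replicate 1.

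Genes that ERK signalling is known to induce are given by their feedback and target lists. Of 10 feedback genes tested, 1 rose and 4 fell with Fucotrim I, 2 rose and 3 fell with Fucotrim II and 3 rose with P-SiaFNEtoc. With SGN-2FF 0 of the 10 passed edgeR's test, limma-voom or DESeq2, and 3 had an unadjusted p under 0.05. DUSP4, a phosphatase of ERK, rose with Fucotrim I, Fucotrim II and P-SiaFNEtoc (0.55, 0.71 and 0.38). DUSP6, another, was at 12.9 ± 1.89 CPM with DMSO and 9.54 ± 1.46 with Fucotrim I (-0.43, lost without DMSO replicate 3) and rose to 17.3 ± 0.791 with P-SiaFNEtoc (0.44). Without DMSO replicate 3, 3 feedback genes were called with Fucotrim I in place of 5. Of 10 targets tested, 5 fell with Fucotrim I, 2 rose and 5 fell with Fucotrim II, 1 rose and 4 fell with SGN-2FF and 4 rose and 1 fell with P-SiaFNEtoc, and the medians were -0.24, -0.39, 0.12 and 0.03.

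The PEA3-type transcription factors ETV1, ETV4 and ETV5 fell with all 3 fucosylation inhibitors. ETV1 was at 33.2 to 34.7 CPM with DMSO, 25.5 to 29.4 with SGN-2FF, 13.4 to 16.7 with Fucotrim I and 13.1 to 14.4 with Fucotrim II, and overlapped DMSO with P-SiaFNEtoc at 33.2 to 37.6. Its log2 fold changes were -1.18 ± 0.09, -1.31 ± 0.09 and -0.32 ± 0.07 with the 3 fucosylation inhibitors and passed under all alternatives. ETV4 had -0.63, -0.91 and -0.22, and rose by 0.30 with P-SiaFNEtoc, where its libraries lay at 40.7 to 42.3 CPM against 33.1 to 34.6 with DMSO. Its fall with SGN-2FF was lost without DMSO replicate 1 or 3 or SGN-2FF replicate 2 or 3. ETV5 had -0.61, -0.61 and -0.54 and did not pass with P-SiaFNEtoc (-0.10). PHLDA1 fell with both Fucotrims (-0.77 and -0.92) and rose with P-SiaFNEtoc (0.37). MYC rose with Fucotrim II (0.23), SGN-2FF (0.32) and P-SiaFNEtoc (0.20), the first of these not without DMSO replicate 2 or 3. EGR1 fell with Fucotrim II (-0.71) and with P-SiaFNEtoc (-0.55), the latter not without P-SiaFNEtoc replicate 1 or 3. FOS rose with Fucotrim II (0.45) and had -1.22 with P-SiaFNEtoc, which did not pass. FOSL1, at only 0.601 CPM with DMSO, rose with P-SiaFNEtoc (1.46).

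**Figure D5:**
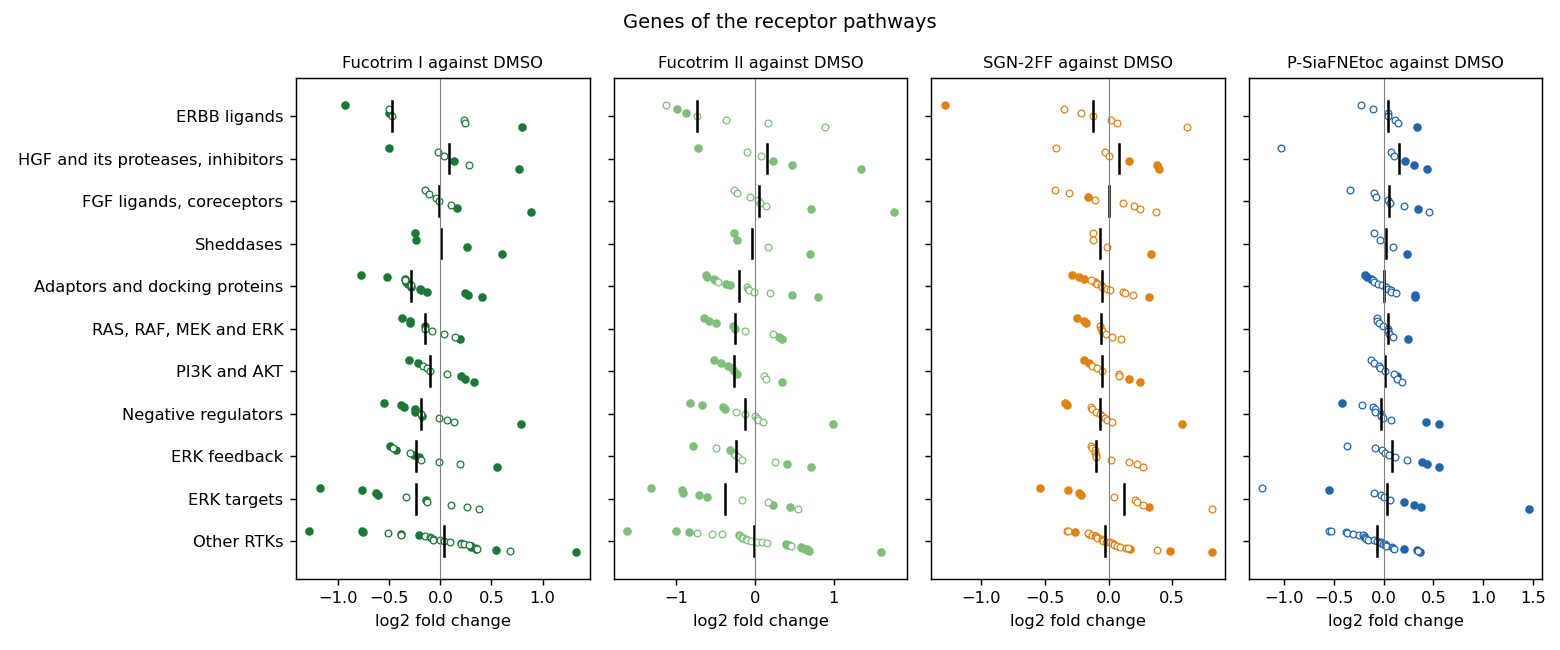
Log2 fold change against DMSO of each tested gene of the 11 lists, one panel per inhibitor with its own scale; filled circles passed the threshold, open circles did not, and vertical bars are list medians. With the Fucotrims the medians of ERBB ligands (-0.47 and -0.73), adaptors (-0.29 and -0.20) and ERK targets (-0.24 and -0.39) lie left of 0, and with P-SiaFNEtoc all medians lie between -0.07 and 0.15.

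Of 49 other receptor tyrosine kinase genes, 26 to 28 were tested. With Fucotrim I 5 rose and 5 fell, with Fucotrim II 10 rose and 4 fell, with SGN-2FF 3 rose and 2 fell and with P-SiaFNEtoc 3 rose and 1 fell. These are 10 of 27, 14 of 28, 5 of 26 and 4 of 27 genes, near the shares of all genes called (43.8%, 51.4%, 20.6% and 16.3%). IGF1R, the receptor for insulin-like growth factor, rose most among those called in at least 3 comparisons. It was at 11.0 to 11.6 CPM with DMSO, 18.7 to 20.8 with SGN-2FF, 27.3 to 29.1 with Fucotrim I and 28.7 to 39.5 with Fucotrim II. Its log2 fold changes of 1.33 ± 0.09, 1.59 ± 0.13 and 0.81 ± 0.09 exceed in size every change of the 8 tested ERBB, MET and FGF receptors under the same inhibitor. With P-SiaFNEtoc IGF1R was at 9.33 to 12.1 CPM and had -0.03. EPHA3, an ephrin receptor, fell in all 4 comparisons (-0.77, -0.84, -0.26 and -0.20), from 174 to 182 CPM in the DMSO libraries to 87.8 to 162 in the treated ones. MST1R, the other receptor of the MET family, had 0.20 with Fucotrim I, which did not pass, and rose with Fucotrim II (0.39), SGN-2FF (0.48) and P-SiaFNEtoc (0.33). The Fucotrim II call was lost without DMSO replicate 1 and the P-SiaFNEtoc call without DMSO replicate 1 or P-SiaFNEtoc replicate 1 or 2. Without DMSO replicate 1 or 3 or SGN-2FF replicate 1 or 2, 3 genes of this list were called with SGN-2FF in place of 5, and without P-SiaFNEtoc replicate 2 the number with P-SiaFNEtoc was 2 in place of 4.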

How the data were processed

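Per the paper's methods and the labels, the authors prepared stranded mRNA libraries, trimmed single-end reads (Cutadapt), aligned these to hg38 (HISAT2) and assigned them to genes (featureCounts). The raw counts were deposited without normalization in 4 tables that repeat the same DMSO libraries. The annotation release, the strand setting and the treatment of multi-mapped reads are not given in the sources used here.

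Each inhibitor was fitted with DMSO on all genes (filterByExpr minimum count 10 and minimum total 15, TMM scaling) with edgeR's quasi-likelihood test (edgeR 4.0.16, limma 3.58.1, DESeq2 1.42.0, R 4.3.3) and Benjamini-Hochberg adjustment. The fits were tested on simulated data. Library totals were 12553094 to 19981453 counts, which sets the counting precision of a gene. CPM values use TMM over the 14 libraries. Positions and lengths are from GENCODE 44. Named pathway genes were those called in at least 3 of the 4 comparisons in one direction, at most 4 per list, and other names were chosen after their values were seen. Some genes that meet this rule are not reported here. For receptors called in at least 3 comparisons, the 2 closest genes averaging 50 counts or more were named. The receptors and lists were chosen with earlier results of these data known. DESeq2, limma-voom, other scalings and filters, a joint fit, a replicate block and leaving out each library were alternatives. Replicates are described as biological repeats, with nothing more on their origin, so p-values measure the spread between these samples.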

Additional observations from a re-analysis of the deposited data

How the results depend on the processing

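Of 416 log2 fold changes of receptor genes under the alternatives, 401 kept their direction and their side of the threshold, 8 fell short of the threshold and 7 turned direction, and none of those 7 passed the threshold under any setting. Leaving out single libraries turned FGFR3 with Fucotrim I (-0.02 to 0.07), ERBB2 with SGN-2FF (-0.08 to 0.01), FGFR3 with SGN-2FF (-0.10 to 0.01), FGFR1 with P-SiaFNEtoc (-0.04 to 0.06) and FGFR3 with P-SiaFNEtoc (-0.04 to 0.05). The same omissions gave 0 to 1 called receptors with SGN-2FF and 1 to 2 with P-SiaFNEtoc. Of all genes, 2946 were called with SGN-2FF, against 1642 without SGN-2FF replicate 2, 1695 in one fit of the 14 libraries and 1949 with DESeq2. With P-SiaFNEtoc 2331 were called, against 1516 without P-SiaFNEtoc replicate 2, 998 in one fit and 1463 with DESeq2. The cause of these shifts was not tested. Of 572 counts over pathway lists, 87 moved by more than 1.5 times. Several pathway calls given above as lost without a library were also lost with DESeq2. These include NRG4, BTC and FGFRL1 with Fucotrim I and ADAM17 and FGF22 with Fucotrim II. They also include ETV4 and FRS2 with SGN-2FF and MST1R and AREG with P-SiaFNEtoc.

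The replicate numbers were not shown to pair the samples. With the Fucotrim II libraries numbered by their titles, the deviations of same-numbered libraries correlated at -0.192 to 0.125. Numbered by their names, the Fucotrim II libraries correlated at 0.192 with DMSO replicate 2 and at 0.0477 with DMSO replicate 3. The number was then used as a replicate block, with the Fucotrim II libraries numbered by title. This gave 5, 4, 1 and 2 called receptors with Fucotrim I, Fucotrim II, SGN-2FF and P-SiaFNEtoc, and 7288, 5300, 2868 and 2674 of all genes. Numbering the Fucotrim II libraries by their names gave 5 receptors and 7779 genes. EGFR with Fucotrim II had an adjusted p of 0.0760 under the block by title and 0.00143 under the block by name (the edgeR quasi-likelihood test, Benjamini-Hochberg adjusted). Depth limits FGFR2 most, and ERBB4 and FGFR4 next, with 75 to 227 counts per library.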

Other observations

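Genes on the strand opposite to ERBB2 and FGFR1 were looked at after the receptor values were seen. PGAP3, which acts in the remodelling of glycosylphosphatidylinositol anchors, had log2 fold changes of 0.40 with Fucotrim I and 0.48 with Fucotrim II, and both passed the threshold. MIEN1, the other neighbour whose exons overlap those of ERBB2, had 0.31 and 0.35 and passed with both Fucotrims, while ERBB2 itself passed only with Fucotrim II of these treatments. With SGN-2FF and P-SiaFNEtoc, PGAP3 had 0.14 and 0.06 and MIEN1 had 0.04 and 0.01, and none of the 4 values passed. LETM2, opposite FGFR1, had -0.22 with Fucotrim I, which did not pass, and -0.27 with Fucotrim II, which passed with an adjusted p of 0.0487 in the edgeR quasi-likelihood test, Benjamini-Hochberg adjusted. FGFR1 was higher with both Fucotrims, so the direction of LETM2 was opposite to it.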
